A study of Homo sapiens with 4 samples.

Results

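The genes described here encode the proteins of the cytosolic ribosome, the particle that translates messenger RNA in the cytoplasm. They were chosen by their symbols, as RPL or RPS followed by a number with at most a closing A, X or L, together with RPLP0, RPLP1, RPLP2 and RPSA. This gave 81 genes of the 19314 listed, 32 for proteins of the small subunit and 49 for proteins of the large subunit. Each of the 81 had a value and entered the test, as did 16595 genes in all. RNA levels were compared in 4 libraries of U87, an established human malignant glioma cell line. In 2 libraries, named PTP2, PTPRN had been knocked down, and the genotype of the other 2 is given as SCR, a scrambled control. The study made the knockdown by transfection with a short hairpin RNA and its methods do not say whether the libraries came from separate cultures, so the p-values below measure only the spread between libraries, which may be technical. All libraries share the U87 background, and the labels name the same growth medium for all of them (DMEM/F12 with B27, insulin, EGF and bFGF). The study's methods give DMEM with FBS for culture of U87, and name the medium of the labels for a limiting dilution assay. Which medium the sequenced cells had cannot be told from these sources. Values are FPKM, fragment counts divided by transcript length and by library size.

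A ribosome holds 1 copy of nearly every ribosomal protein, so their genes are known to be expressed at similar and high levels in growing cells. Their mRNAs carry a 5′ terminal oligopyrimidine tract, or TOP motif: transcription starts at a C that is followed by an unbroken run of pyrimidines (C or T). Through this tract the translation of the mRNAs is regulated by mTORC1 and the RNA-binding protein LARP1. Transcription of the same genes is a known target of MYC. Ribosomal protein genes have large families of processed pseudogenes, copies of the spliced mRNA elsewhere in the genome, from which short reads are hard to tell apart.

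The knockdown target was checked first. PTPRN, a receptor-type tyrosine phosphatase-like protein of secretory vesicles, had 12.1 and 11.7 FPKM in PTP2 1 and 2 and 84.8 and 85.0 FPKM in SCR 1 and 2, a log2 difference of -2.74 ± 0.033 (SE, limma adjusted p = 1.48e-04). Depth was read from the steps between low FPKM values and came to 18100000 to 19700000 reads a library. The labelled cell line was checked against markers as well. VIM, CD44, TNC, FN1 and SPARC each had at least 51.5 FPKM in every library, CHI3L1 had 29.7 to 93.5 FPKM and NES 3.12 to 14.2 FPKM, while GFAP, S100B and SOX2 were at or below 0.55 FPKM. Of these 10 markers VIM and CD44 rose, and 6 fell in PTP2, among them FN1 (51.6 and 51.5 FPKM in PTP2, 417 and 425 FPKM in SCR) and TNC (263 and 269 FPKM in PTP2, 684 and 689 FPKM in SCR). CDKN2A, a gene deleted in U87, was at or below 0.05 FPKM. The growth protocol of the labels names an endothelial line, hCMEC/D3. All 8 endothelial markers examined were at or below 2.5 FPKM in every library, and their sum was 3.89 to 4.30 FPKM in PTP2 and 4.32 to 4.45 FPKM in SCR.

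The bases around the transcription start show a feature that most of the genes share. In each window below, from RefSeq (GRCh38.p14), 15 bases before the annotated start are followed by the first 15 bases of the transcript, and capitals mark the longest run of pyrimidines. RPS6 and RPL24 are shown since they rose most among the abundant genes, RPLP1 and RPL41 since they stood highest in SCR, RPS10 and RPS18 since they stood lowest in the comparison, RPL4 since it rose without such a run at its start, and RPS27L and RPL10L as paralogs.
RPS6: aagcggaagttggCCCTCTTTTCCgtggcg
RPL24: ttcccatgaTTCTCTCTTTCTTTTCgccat
RPLP1: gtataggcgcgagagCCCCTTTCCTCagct
RPL41: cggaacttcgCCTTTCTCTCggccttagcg
RPS10: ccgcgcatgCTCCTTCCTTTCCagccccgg
RPS18: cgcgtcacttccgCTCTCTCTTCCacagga
RPL4: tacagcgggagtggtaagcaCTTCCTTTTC
RPS27L: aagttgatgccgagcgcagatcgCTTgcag
RPL10L: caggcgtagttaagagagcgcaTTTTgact
These lie at chr9:19380222-19380251 (minus strand) for RPS6, chr3:101686704-101686733 (minus) for RPL24, chr15:69452803-69452832 (plus) for RPLP1, chr12:56116618-56116647 (plus) for RPL41, chr6:34426055-34426084 (minus) for RPS10, chr6:33272060-33272089 (plus) for RPS18, chr15:66504841-66504870 (minus) for RPL4, chr15:63157463-63157492 (minus) for RPS27L and chr14:46651767-46651796 (minus) for RPL10L. The run spans the start in RPS6, RPL24, RPL41, RPS10 and RPS18, and begins at the start itself in RPLP1. In RPL4 a run of 10 bases begins at base 6 of the transcript. In RPS27L and RPL10L the longest run in the window has 3 or 4 bases and lies off the annotated start. For RPS18 the window is that of the functional gene, while the deposited table places RPS18 at a pseudogene. RPS10 and RPS18, which did not rise, carry runs of 13 and 11 bases, of the same kind as the 11 bases of RPS6.

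RefSeq starts were found for 64 of the 81 genes, with 79 starts in all. A run of 6 or more pyrimidines within 15 bases of a start was present in 87.5% of these 64 genes and in 35.8% of the 27305 genes with a start listed. The annotated start was a C in 76.6% against 18.0%, and a C opening a run of 5 or more pyrimidines in 71.9% against 5.14%. The motif CTTTTC, searched on the transcript strand alone, lay within 15 bases of the start in 17.2% against 1.55%. It can be part of a longer pyrimidine run. Across the 300 bases around the start, the letters CGGAAG (core of the site of GABP and other ETS factors, either strand) were found in 64.1% against 22.6%, AAGATGG (core of the YY1 site) in 12.5% against 7.11%, GGGCGG (the GC box of Sp1) in 59.4% against 48.3% and TATAAA in 9.38% against 13.99%. The proteins of the mitochondrial ribosome, which are also nuclear genes, differ at the start: 8.70% of 69 had a C opening a run of 5 or more pyrimidines, and 55.1% had CGGAAG. In these 69 genes AAGATGG was found in 34.8%, GGGCGG in 60.9% and TATAAA in 4.35%.

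Ribosomal protein genes held a larger share of the summed FPKM in the PTP2 libraries. FPKM is divided by transcript length, so this is not a share of the reads. The 81 genes held 12.26% and 11.99% of the summed FPKM of all genes in PTP2 1 and 2, and 8.91% and 8.80% in SCR 1 and 2. The groups did not overlap. The mean share was 12.1% ± 0.186 (SD, n = 2) in PTP2 and 8.86% ± 0.0752 (SD, n = 2) in SCR, a difference of 3.27 percentage points and a ratio of 1.37. An exact permutation test over 2 against 2 libraries cannot give a two-sided p below 0.333, so this share is a description. The share is relative: more ribosomal protein mRNA, less of other mRNA, and, in bulk samples, fewer cells of a type and less RNA per cell cannot be told apart. In the same libraries the 10 most abundant other genes held 8.61% and 8.37% of FPKM in PTP2 and 12.2% and 12.3% in SCR. With the 10 other genes of highest mean FPKM over the libraries left out of the total, the share differed by 3.16 percentage points.

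Both subunits took part in the larger share. Small subunit genes held 4.93% and 4.82% of FPKM in PTP2 and 3.67% and 3.62% in SCR. Large subunit genes held 7.32% and 7.18% in PTP2 and 5.24% and 5.19% in SCR. Of the ribosomal protein FPKM alone, 59.7% and 59.8% fell to the large subunit in PTP2 and 58.8% and 58.9% in SCR, so the balance between the subunits moved by about a percentage point. The mitochondrial ribosomal protein genes held only 0.785% and 0.777% of FPKM in PTP2 and 0.722% and 0.705% in SCR. Among the 100 most abundant genes of each library, 46 and 45 were cytosolic ribosomal protein genes in PTP2 and 34 in either SCR library.

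**Figure D1:**
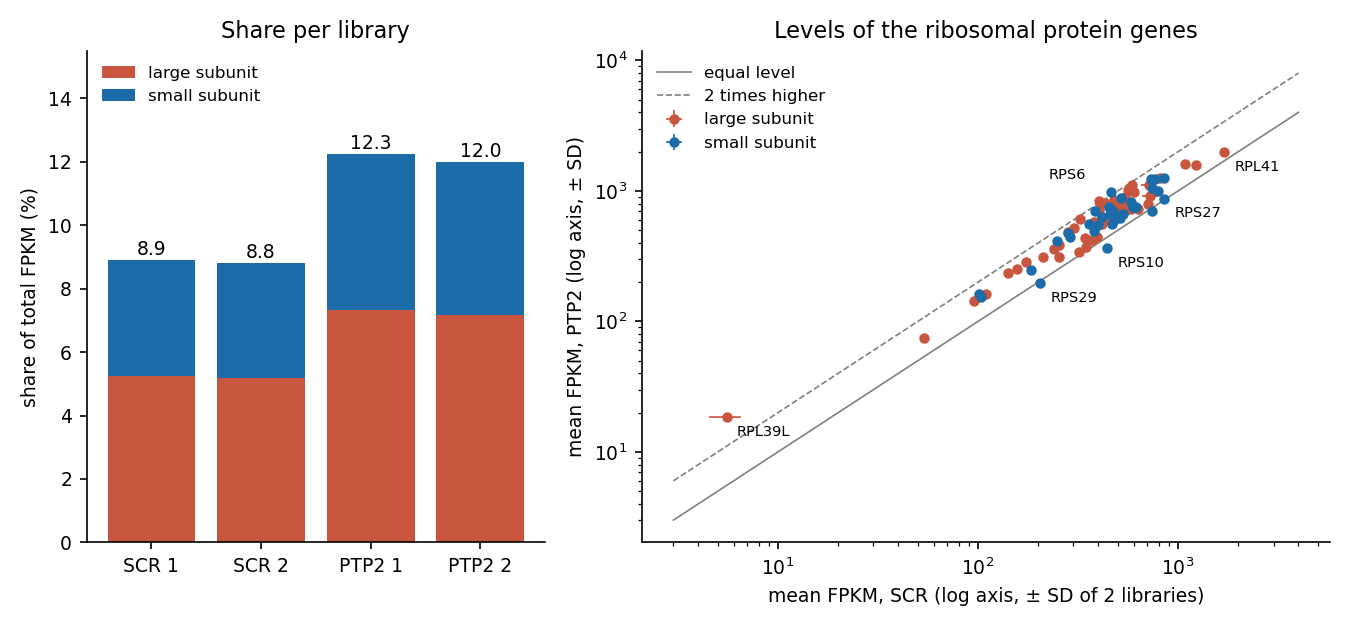
Left, share of total FPKM (%) held by large and small subunit genes in each library, with the sum above each bar. Right, mean FPKM in PTP2 against mean FPKM in SCR on log axes for the 79 genes with at least 1 FPKM in SCR (error bars, SD of 2 libraries). Most points lie between the line of equal level and the line of 2 times higher, with RPL39L above them and RPS10, RPS18 and RPS29 below equality.

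The levels of the genes within a library were high and far from equal. The median gene had 683 and 649 FPKM in PTP2 and 457 and 441 FPKM in SCR. Of the 81 genes, 76 had a mean of at least 100 FPKM in SCR, and the number at or above 1000 FPKM was 3 in SCR and 13 in PTP2. The order of the genes was largely kept between groups (Spearman's rho 0.92 over the 79 genes with at least 10 FPKM in a group, which share the same annotation and lengths).

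RPL41, a very short basic peptide of the large subunit, stood highest with 2017 and 1961 FPKM in PTP2 and 1696 and 1713 FPKM in SCR. RPLP1, a stalk protein, followed with 1636 and 1548 FPKM in PTP2 and 1254 and 1209 FPKM in SCR. RPLP0, the base of the stalk, had 1663 and 1578 FPKM in PTP2 and 1082 and 1090 FPKM in SCR. These 3 did not overlap with each other in SCR, while in PTP2 the ranges of RPLP0 and RPLP1 overlapped. RPS27, a zinc-binding protein of the small subunit, had 890 and 854 FPKM in PTP2 and 871 and 827 FPKM in SCR. RPS12 had 1271 and 1247 FPKM in PTP2 and 862 and 831 FPKM in SCR. RPL8, a protein near the peptidyl transferase center, had 1278 and 1242 FPKM in PTP2 and 829 and 797 FPKM in SCR. RPS27 overlapped with RPS12 and with RPL8 in SCR, and in PTP2 it lay below the other two. On the log2 scale RPL41 rose by 0.22 ± 0.032 (SE, limma adjusted p = 0.00763), RPS12 by 0.57 ± 0.036 (adjusted p = 9.68e-04) and RPL8 by 0.63 ± 0.038 (adjusted p = 8.98e-04). The call of RPL41 was lost without SCR 1 or SCR 2 (adjusted p = 0.0641 and 0.0589), and after removal of the trends on length and GC content its difference was -0.10. These 6 genes held 17.5% of the ribosomal protein FPKM in SCR and 16.1% in PTP2. At the other end, RPL3L and RPL10L, paralogs known from muscle and testis, were at or below 0.13 FPKM in every library. The 10 genes with an annotated transcript longer than 2000 bases had a median of 163 FPKM in SCR and the other 69 a median of 477 FPKM. Their log2 fold changes had medians of 0.58 and 0.56.

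Gene by gene, most ribosomal protein genes were higher in PTP2. Of the 81 genes, 71 rose at an adjusted p of at most 0.05 (limma on log2(FPKM + 1)), 1 fell and 9 did not pass. Among all 16595 genes tested 30.8% rose and 27.1% fell by the same rule, 57.9% in all. Among the 11272 genes with a mean of at least 1 FPKM, 41.1% rose and 33.5% fell. The median log2 fold change was 0.57 for the ribosomal protein genes, 0.01 for all genes tested and 0.06 for the 11272 genes with a mean of at least 1 FPKM. Without regard to the test, 75 genes had both PTP2 libraries above both SCR libraries, against 39.7% of all genes, and 2 had both below, against 35.8%. Of the 11272 genes, 5521 had both above and 4537 had both below. The changes were mostly under 2-fold. A log2 fold change of at least 0.5 was found for 46 of the 81 genes and for 14.2% of all genes tested. At a fold change of 2 and an adjusted p of 0.001, the thresholds of the study, 2 genes passed, RPS6 and RPL24, where 6.69% of all genes did and 2.63% in the upward direction. Leaving out a library leaves 1 library in a group, which is too few to judge these stricter thresholds. The log2 fold change of RPL24 was 1.01 to 1.06 in those fits.

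The subunits were alike in direction. In the small subunit 28 of 32 genes rose and 1 fell, with a median log2 fold change of 0.52. In the large subunit 43 of 49 rose and 0 fell (limma, 0 also at an unadjusted p under 0.05), with a median of 0.57. The replicate libraries lay close together, with a median SD on the log2 scale of 0.030 in PTP2 and 0.027 in SCR. For the 39 genes with a single annotated transcript and at least 10 FPKM in every library, the FPKM values correspond to between 1870 and 25934 reads a library.

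**Figure D2:**
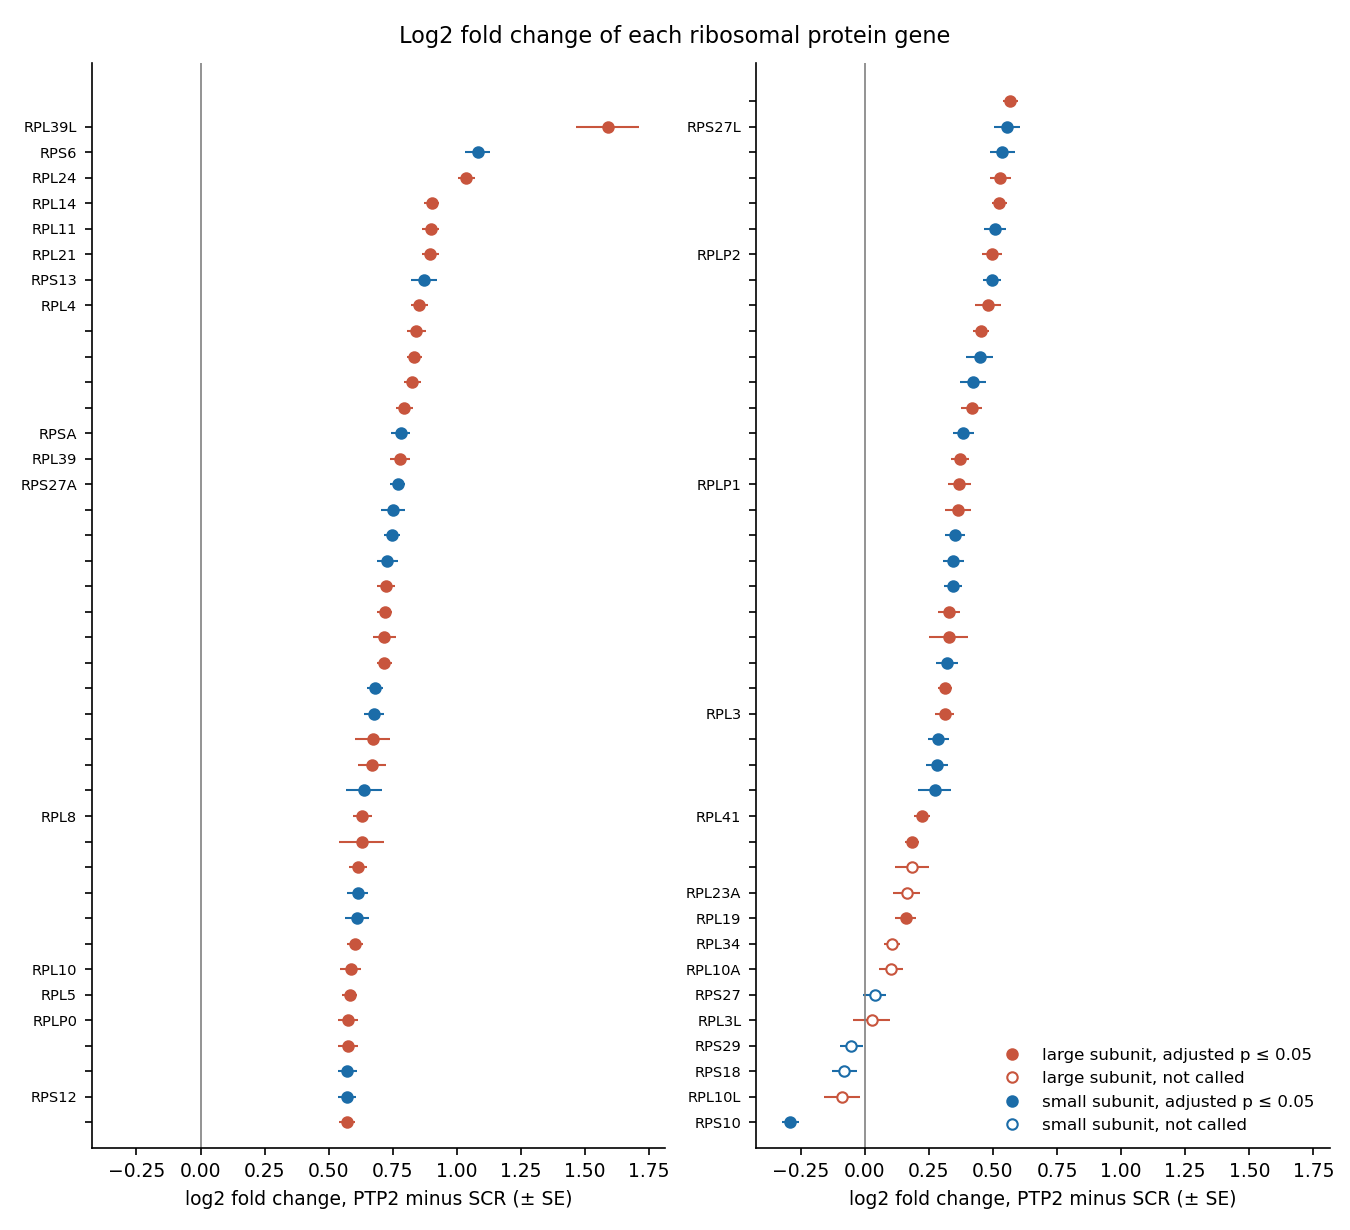
Log2 fold change (PTP2 minus SCR, error bars ± SE) of all 81 ribosomal protein genes in order, with filled points for called genes and names beside the genes given with values in the text. The values run from 1.59 for RPL39L down to -0.29 for RPS10, and the open points crowd at the lower end around 0.

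RPL39L had the largest fold change at a low level. RPL39L is a paralog of RPL39, a small protein lining the exit tunnel, and is known for its expression in testis and some cancers. It had 19.2 and 17.9 FPKM in PTP2 and 6.25 and 4.82 FPKM in SCR, a log2 fold change of 1.59 ± 0.12 (SE, limma adjusted p = 0.00159). The groups did not overlap, and these levels correspond to 57 to 229 reads a library. Leaving out PTP2 1 or PTP2 2 raised its adjusted p to 0.0549 and 0.0519. The parent gene RPL39 had 527 and 514 FPKM in PTP2 and 296 and 310 FPKM in SCR (0.78 ± 0.039, adjusted p = 6.57e-04).

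RPS6, the small subunit protein that S6 kinase phosphorylates downstream of mTORC1, had 1018 and 951 FPKM in PTP2 and 457 and 471 FPKM in SCR. Its log2 fold change was 1.08 ± 0.048 (SE, limma adjusted p = 5.46e-04). RPL24, a protein at the interface of the subunits, had 833 and 828 FPKM in PTP2 and 412 and 397 FPKM in SCR (1.04 ± 0.034, adjusted p = 3.64e-04). In both genes each PTP2 library held more than 2 times the FPKM of each SCR library. RPL14 had 808 and 798 FPKM in PTP2 and 428 and 431 FPKM in SCR (0.90 ± 0.029). RPL21 had 604 and 605 FPKM in PTP2 and 319 and 330 FPKM in SCR (0.90 ± 0.033). RPS13 had 685 and 718 FPKM in PTP2 and 396 and 371 FPKM in SCR (0.87 ± 0.051). RPL4, a large subunit protein that lines the exit tunnel, had 1029 and 1002 FPKM in PTP2 and 568 and 555 FPKM in SCR (0.85 ± 0.033). The limma adjusted p-values of these 4 genes were at most 8.40e-04.

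RPS10 was the gene that fell. RPS10, a small subunit protein whose mutations cause Diamond-Blackfan anemia, had 368 and 357 FPKM in PTP2 and 446 and 441 FPKM in SCR. The groups did not overlap, and the log2 fold change was -0.29 ± 0.032 (SE, limma adjusted p = 0.00380). A readthrough transcript joining RPS10 to its neighbor NUDT3 is listed as a gene of its own and had at most 1.25 FPKM in any library.

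The 9 genes that did not pass were RPS18, RPS29, RPS27, RPL10A, RPL34, RPL23A, RPL28, RPL3L and RPL10L, of which the last 2 were near 0 FPKM in every library. RPS18, at the head of the small subunit, had 729 and 676 FPKM in PTP2 and 733 and 750 FPKM in SCR. Both PTP2 values lay under both SCR values, with a log2 difference of -0.08 ± 0.050 and an adjusted p of 0.267. RPS29, a zinc-binding small subunit protein, had 198 and 196 FPKM in PTP2 and 211 and 198 FPKM in SCR, and the groups overlapped (-0.05 ± 0.045, adjusted p = 0.393). RPS27 overlapped as well (0.04 ± 0.044, adjusted p = 0.519). RPL10A had 354 and 331 FPKM in PTP2 and 322 and 316 FPKM in SCR (0.10 ± 0.047, adjusted p = 0.149). RPL34 had 375 and 370 FPKM in PTP2 and 350 and 342 FPKM in SCR (0.11 ± 0.031, adjusted p = 0.0517). In RPL10A and RPL34 the PTP2 libraries were above the SCR libraries by less than the test could call. The 95% intervals of the log2 difference ran from -0.03 to 0.24 for RPL10A, from 0.02 to 0.20 for RPL34, from -0.09 to 0.17 for RPS27 and from -0.18 to 0.08 for RPS29, so increases as large as the median of the ribosomal protein genes lay outside them.

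RPL19 was just inside the threshold. It had 814 and 772 FPKM in PTP2 and 718 and 701 FPKM in SCR (0.16 ± 0.041, limma adjusted p = 0.0377). RPL23A was just outside with 462 and 424 FPKM in PTP2 and 391 and 399 FPKM in SCR (0.16 ± 0.054, adjusted p = 0.0698). The call of RPL19 was lost when any of the 4 libraries was left out, and under quantile normalization its sign turned (-0.19, adjusted p = 0.0101).

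The genes were also grouped by their place in the ribosome, where 87.7% of all 81 genes rose. In the stalk, the flexible arm of the large subunit that recruits translation factors, all 3 genes rose. RPLP0 rose by 0.58 ± 0.040 and RPLP1 by 0.37 ± 0.045 on the log2 scale. RPLP2, which pairs with RPLP1, had 749 and 752 FPKM in PTP2 and 545 and 518 FPKM in SCR (0.50 ± 0.039, limma adjusted p = 0.00155). RPLP1 lost its call when SCR 1 or SCR 2 was left out (adjusted p = 0.0618 and 0.0715) and under quantile normalization.

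RPL5 and RPL11 bind the 5S ribosomal RNA and, when free, inhibit MDM2, the ligase that degrades p53. RPL11 had 1116 and 1085 FPKM in PTP2 and 583 and 598 FPKM in SCR (0.90 ± 0.034, limma adjusted p = 4.31e-04). RPL5 had 362 and 360 FPKM in PTP2 and 242 and 239 FPKM in SCR (0.58 ± 0.029, adjusted p = 6.42e-04). Both genes were higher in each PTP2 library than in each SCR library, as were 39.7% of all genes tested. Per length, RPL11 stood above RPL5 in all 4 libraries. Around the tunnel exit, where the new chain leaves the ribosome, 6 of 7 genes rose and RPL23A did not pass. Of these 6, RPL35 lost its call when any library was left out (adjusted p = 0.0636 to 0.0869), RPL26 without SCR 1 or SCR 2 (0.0579 and 0.0541), RPL19 as given above, and RPL17 without SCR 2 (0.0533) and after removal of the trends (log2 difference 0.052). At the mRNA entry site RPS2, RPS3 and RPS9 all rose, with a median log2 fold change of 0.42. RPS3 lost its call without SCR 1 or SCR 2 (adjusted p = 0.0721 and 0.0819), as did RPS9 (0.0805 and 0.0868), whose log2 difference was 0.017 under quantile normalization. Of the 19 genes examined that are mutated in Diamond-Blackfan anemia, an inherited failure of red cell production, 16 rose, RPS10 fell, and RPS27 and RPS29 did not pass. Their median was 0.57, as for the 81 genes.

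Other genes with well-known roles rose too. RPSA, also known as a laminin receptor, had 910 and 867 FPKM in PTP2 and 520 and 513 FPKM in SCR (0.78 ± 0.039, limma adjusted p = 6.34e-04). RPS27A, which is made as a fusion with ubiquitin, had 476 and 483 FPKM in PTP2 and 280 and 281 FPKM in SCR (0.77 ± 0.029, adjusted p = 4.27e-04). RPL10, near the catalytic center and mutated in some T-cell leukemias, had 394 and 373 FPKM in PTP2 and 257 and 253 FPKM in SCR (0.59 ± 0.041, adjusted p = 0.00124). RPL3, a core protein next to the peptidyl transferase center, had 741 and 707 FPKM in PTP2 and 584 and 583 FPKM in SCR (0.31 ± 0.038, adjusted p = 0.00468). In these 4 genes both PTP2 libraries lay above both SCR libraries, as in 39.7% of all genes tested. RPL3 lost its call without SCR 1 or SCR 2 (adjusted p = 0.0688 and 0.0686) and had a log2 difference of -0.03 under quantile normalization. RPS27L, a p53-responsive paralog of RPS27, had 156 and 149 FPKM in PTP2 and 107 and 99.8 FPKM in SCR (0.56 ± 0.051, adjusted p = 0.00229), and its adjusted p was 0.0522 without PTP2 1.

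Since a ribosome needs equal numbers of its proteins, each gene was also compared with the mean of the ribosomal protein genes themselves, by subtracting in each library their mean log2(FPKM + 1). On this scale 24 of the 81 genes lay above the mean in PTP2 relative to SCR and 28 below it (limma adjusted p at most 0.05). The mean is that of these genes themselves, so a split to both sides was built in and the counts are a description. RPL3L and RPL10L, near 0 FPKM in every library, are among those below only because the mean was subtracted. Among all genes tested 7.83% lay above and 79.7% below. Of the 11272 genes with a mean of at least 1 FPKM, 1251 lay above and 8164 below. The largest relative increases were those of RPL39L (1.06 ± 0.092), RPS6 (0.55 ± 0.061) and RPL24 (0.50 ± 0.057). The largest relative decreases among abundant genes were those of RPS10 (-0.82 ± 0.056), RPS18 (-0.61 ± 0.060), RPS29 (-0.59 ± 0.058) and RPS27 (-0.49 ± 0.056). RPLP0, RPL5, RPS12 and RPL8 differed from the mean by at most 0.10 and did not pass. The count of 52 genes called in either direction fell to 31 without SCR 1 and to 31 without SCR 2.

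Ribosome genes outside the symbol rule were examined beside them. RACK1, a scaffold on the small subunit, had 1010 and 1002 FPKM in PTP2 and 621 and 620 FPKM in SCR (0.70 ± 0.028, limma adjusted p = 4.73e-04). FAU, which encodes RPS30 fused to a ubiquitin-like protein, had 510 and 482 FPKM in PTP2 and 361 and 344 FPKM in SCR (0.49 ± 0.048, adjusted p = 0.00270). Both rose with no overlap between groups, and without SCR 2 the adjusted p of FAU was 0.0525. RPL36AL, a paralog of RPL36A, had 155 and 163 FPKM in PTP2 and 189 and 187 FPKM in SCR and fell (-0.24 ± 0.040, adjusted p = 0.0109), a call lost without SCR 1 or SCR 2 (adjusted p = 0.107 and 0.0969). Of the 7 genes of this list 5 rose, 1 fell and 1 did not pass. Among all genes tested 30.8% rose and 27.1% fell, and 39.7% had both PTP2 libraries above both SCR libraries.

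Other mRNAs known to carry a TOP motif were mostly higher as well. Of 18 such genes with a value 14 rose, 2 fell (EIF4A2 and EIF3L) and 2 did not pass (EEF1A1 and TPT1), with a median log2 fold change of 0.44. Over all genes tested 30.8% rose, and 41.1% of those with a mean of at least 1 FPKM. RefSeq starts were found for 16 of the 23 genes listed. Of these 16, 68.8% had a C opening a run of 5 or more pyrimidines. EEF2, the translocation factor of elongation, had 816 and 795 FPKM in PTP2 and 574 and 560 FPKM in SCR (0.51 ± 0.034, limma adjusted p = 0.00112). EEF1G, an elongation factor subunit, had 867 and 848 FPKM in PTP2 and 628 and 615 FPKM in SCR (0.46 ± 0.032, adjusted p = 0.00122). VIM, the intermediate filament protein of glioma cells and the most abundant of the list, had 4766 and 4565 FPKM in PTP2 and 1998 and 1918 FPKM in SCR (1.25 ± 0.042, adjusted p = 3.76e-04). EEF1A1, the most abundant elongation factor mRNA, had 1740 and 1748 FPKM in PTP2 and 1654 and 1690 FPKM in SCR (0.06 ± 0.030, adjusted p = 0.174).

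Genes of mTORC1 signaling, translation initiation control and MYC were examined as regulators. Of 13 such genes 5 rose, 4 fell and 4 did not pass, shares near the 30.8% and 27.1% over all genes, with a median log2 fold change of 0.03, which turned to -0.02 under quantile normalization and -0.01 under median-ratio scaling. RHEB, the activator of mTORC1, had 135 and 129 FPKM in PTP2 and 90.4 and 88.2 FPKM in SCR (0.56 ± 0.039, limma adjusted p = 0.00123). EIF4EBP1, a translation repressor that mTORC1 inactivates, had 71.6 and 68.8 FPKM in PTP2 and 90.6 and 94.0 FPKM in SCR (-0.39 ± 0.040, adjusted p = 0.00297). LARP1 had 39.7 FPKM in either PTP2 library and 33.5 and 36.1 FPKM in SCR (0.19 ± 0.047, adjusted p = 0.0356), a call that was lost under 6 of the 12 alternatives. MYC had 20.9 and 21.2 FPKM in PTP2 and 13.2 and 11.3 FPKM in SCR (0.74 ± 0.080, adjusted p = 0.00350). The remaining genes that rose were MTOR (0.43 ± 0.041, adjusted p = 0.00253) and EIF4EBP2 (0.23 ± 0.048, adjusted p = 0.0199). The 4 that fell were EIF4EBP1, RPTOR (-0.45 ± 0.040, adjusted p = 0.00206), MAX (-0.30 ± 0.046, adjusted p = 0.00908) and EIF4E (-0.13 ± 0.028, adjusted p = 0.0221).

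Of 7 chaperones that escort single ribosomal proteins to the assembling ribosome, 5 rose, 1 fell (HEATR3) and 1 did not pass. Their median log2 fold change was 0.59. By the same rule 30.8% of all genes tested rose and 27.1% fell. BCCIP, the chaperone of RPL23, had 74.98 and 71.57 FPKM in PTP2 and 35.87 and 38.82 FPKM in SCR (0.95 ± 0.055, limma adjusted p = 8.31e-04). TSR2, the chaperone of RPS26, had 25.2 and 26.3 FPKM in PTP2 and 16.5 and 16.2 FPKM in SCR (0.63 ± 0.037, adjusted p = 8.54e-04). PDCD2, the chaperone of RPS2, had 38.8 and 37.5 FPKM in PTP2 and 26.0 and 23.9 FPKM in SCR (0.60 ± 0.053, adjusted p = 0.00219), with adjusted p-values of 0.0551 and 0.0510 without PTP2 1 and without PTP2 2. These 3 genes were picked among the called genes of the list, so their lack of overlap between groups adds little to the calls. Both PTP2 libraries lay above both SCR libraries in 39.7% of all genes tested.

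The 78 genes of the mitochondrial ribosome gave a broader picture. Of these 56 rose and 5 fell, with a median log2 fold change of 0.39 against 0.57 for the 81 cytosolic genes, and their values ran from -1.06 to 1.30. The SD of the log2 fold changes was 0.40 for the mitochondrial genes and 0.30 for the cytosolic genes. The difference between these lists was not tested. The KEGG pathway Ribosome in the deposited annotation had 201 tested genes, of which 80 were cytosolic ribosomal protein genes by the symbol rule and 43 were mitochondrial. Of the 201 genes 128 rose and 23 fell, with a median of 0.34, below the 0.57 of the genes chosen by symbol. RPL41 is not in the pathway list.

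**Figure D3:**
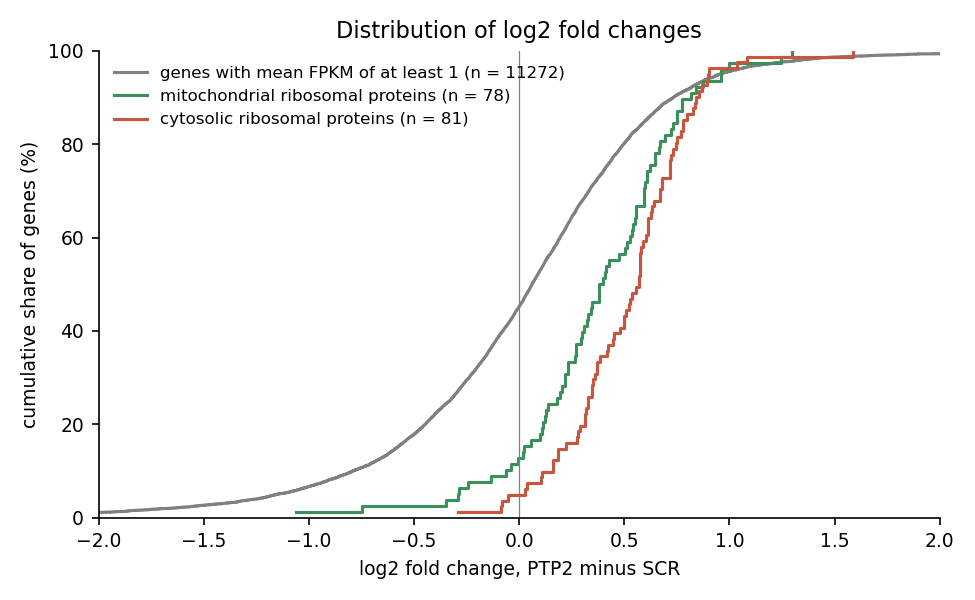
Cumulative share of genes (%) by log2 fold change (PTP2 minus SCR) for the 81 cytosolic ribosomal protein genes, the 78 mitochondrial ones and the 11272 genes with a mean of at least 1 FPKM. The curves cross the middle at 0.57, 0.39 and 0.06, and the cytosolic curve is the steepest.

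Sequence features at the start were set beside the fold changes as a description. The 46 genes with a C opening a run of 5 or more pyrimidines had log2 fold changes with a median of 0.57, and the 18 without it 0.39. The 41 genes with CGGAAG had a median of 0.50 and the 23 without it 0.60. Genes without it were found at both ends of the range. RPL4, which rose by 0.85, has its run beginning at base 6 of the transcript, and RPL10A, which did not pass, at base 3. RPL15 (0.80) and RPL6 (0.84) were also without it.

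The deposited annotation does not place every gene at its functional copy. The deposited coordinates are those of GRCh38, and 71 of the 81 genes lie at the place RefSeq gives. Another 2 are placed on alternative contigs. The other 8 (RPL7, RPL21, RPS2, RPS12, RPS18, RPS25, RPS27 and RPS28) are placed at a processed pseudogene on another chromosome, for example RPS27 at RPS27P3 on chromosome 12 (3211596 to 3211951) in place of chromosome 1. Of these 8 genes 6 rose and 2, RPS18 and RPS27, did not pass. RefSeq lists 1966 pseudogenes named after the 81 genes, with a median of 16 for a gene and 137 for RPL21, and 77 of the 81 genes have at least 1. Readthrough genes overlap RPS10, RPL17 and RPL36A. Without these 11 genes, 63 of 70 rose and 0 fell (limma, 0 also at an unadjusted p under 0.05), the median log2 fold change was 0.56 and the share differed by 2.89 percentage points.

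The size of the increase depended on how the libraries were scaled. Quantile normalization, which gives all libraries the same distribution of values, lowered the median log2 fold change to 0.31, with 57 genes higher and 6 lower. Among all genes, the log2 fold change fell with GC content (Spearman's rho -0.23 over 11252 genes) and with length (-0.11 over 11272 genes), and the ribosomal protein transcripts were short, with a median longest transcript of 829 bases against 3202. Within the 79 ribosomal protein genes the same correlations were -0.28 with GC content and 0.05 with length. After the trends on length and GC content were removed, the median was 0.37, with 63 genes higher and 8 lower. The shares of all genes called under quantile normalization and after this removal are not given here, so these counts lack a baseline. RPS27 had log2 differences of -0.30 (adjusted p = 0.00253) after quantile normalization and -0.32 (adjusted p = 0.00179) after removal of the trends. RPS18 (-0.41 and -0.34) and RPS29 (-0.16 and -0.14) were also called lower under both. RPL23, which had 718 and 724 FPKM in PTP2 and 631 and 637 FPKM in SCR and rose by 0.18 ± 0.029 (adjusted p = 0.00935), was called lower under both (-0.16 and -0.19). In all, 12 genes with a positive difference turned negative under quantile normalization and 7 after removal of the trends, and of these RPL19 and RPL23 were called in both directions. RPS10 was lower under all 12 alternatives. At the other end, 42 of the 71 genes were called higher under all 12 alternatives, and 62 of all 81 genes had a positive difference under all of them.

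**Figure D4:**
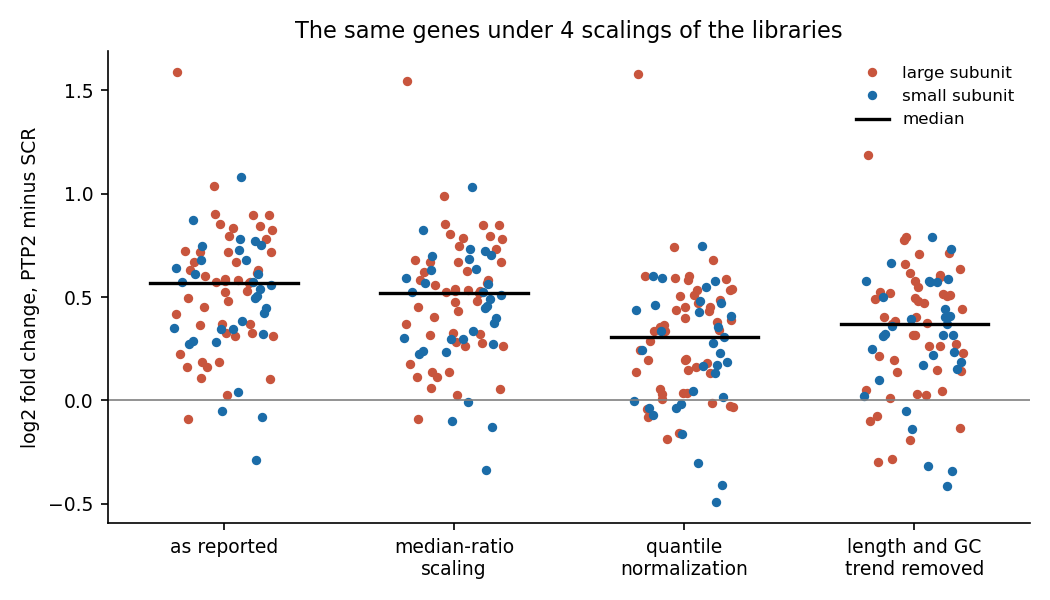
Log2 fold change (PTP2 minus SCR) of each of the 81 ribosomal protein genes as reported and under 3 other treatments of the libraries, with the median as a black line. The median moves from 0.57 to 0.52, 0.31 and 0.37, and more points fall below 0 under the last 2 treatments.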

How the data were processed

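RNA from U87 cells was sequenced by BGI on a BGISEQ-500 (single-end, 50 bases). FPKM values for each gene and library, rounded to 2 decimals, were deposited in 2 tables, which held the same values (0 of 66380 differed). The submitters' processing notes name HISAT2 2.1.0 and hg19, although the deposited coordinates are those of GRCh38. The counting program is not given in the sources used here. The deposited fold changes, p-values and q-values of the authors' own comparisons were not used.

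Of the 19314 genes listed, 2719 had no value and were left out, which kept 16595. Their log2(FPKM + 1) values were fitted by group in limma 3.58.1 (R 4.3.3, lmFit and eBayes, default options), and p-values were adjusted over all of them after Benjamini and Hochberg. A fold change on this scale understates the change of low genes. The fit was tested on simulated data. Groups were taken from the titles. The genes and the lists were chosen with earlier results of these data known. Genes named with values were the 6 highest in SCR, the 8 largest and the 8 lowest log2 fold changes among genes with at least 10 FPKM in the higher group, 16 genes with known roles, and PTPRN, FAU, RACK1 and the 3 highest expressed called genes of each list. Some genes that this rule picks are not reported here. RPL6, RPL15, RPL17, RPL23, RPL26, RPL28, RPL35, RPS2, RPS3, RPS9, EEF1A1, MYC, MTOR and EIF4EBP2 were chosen after their values were seen. So were the genes named for their position, those named as falling or not passing in a list and the windows shown. Alternatives were a pseudocount of 0.1, a minimum of 1 FPKM in 2 or more libraries, quantile normalization, median-ratio scaling, a block for the replicate number, an eBayes trend, removal of trends on length and GC content (mgcv 1.9.3), other members and denominators for the share, and leaving out each library. Chosen after seeing the data were a trend fitted without the ribosomal protein genes, and leaving out genes placed at a pseudogene or overlapped by a readthrough gene.

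Depth was estimated from single-transcript genes with few reads, taking FPKM steps as whole reads. Between 75.1% and 81.5% of these values lay within 0.15 reads of a whole number. Start sequences were taken from RefSeq (GRCh38.p14) by symbol, and a start was matched for 64 of the 81 genes. A feature counted for a gene with several starts if any start had it, and windows are printed only for genes with 1 start.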

Additional observations from a re-analysis of the deposited data

How the results depend on the processing

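The number of ribosomal protein genes that rose stayed between 51 and 73 under every alternative (71 as reported), with 51 when SCR 2 was left out and 55 to 63 when another library was. The number that fell was 6 under quantile normalization, 8 after removal of the length and GC trends, 7 with that trend fitted without the ribosomal protein genes, 0 without the genes placed at a pseudogene or with a readthrough gene, and 1 to 2 when a library was left out. At 2-fold and an adjusted p of 0.001 the count of 2 became 0 with a pseudocount of 0.1, with the replicate block and under quantile normalization. It was 1 under median-ratio scaling (RPS6) and after either removal of the trends (RPL39L, with RPS6 and RPL24 under 2-fold). It was 3 with the 1 FPKM minimum and with the eBayes trend. Fits without a library have 1 library in a group and cannot judge these thresholds. The median log2 fold change was 0.31 under quantile normalization, 0.52 under median-ratio scaling, 0.37 and 0.38 after the removals of the trends, and 0.54 to 0.59 without a library. The count of genes that moved away from the mean of the ribosomal protein genes was 31 to 47 without a library. The large subunit median exceeded that of the small subunit by 0.05, and by 0.11 under quantile normalization. The share differed by 1.76 percentage points under quantile normalization and 2.89 without the genes at pseudogenes or with readthrough genes. The share of all genes called under each alternative is not given here. Whether the ribosomal protein genes kept their excess over it therefore cannot be told from these counts. The cause of these shifts was not tested.

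Signs turned for 12 genes under quantile normalization and 7 after removal of the trends. RPL23 had -0.16 under the former and -0.19 under the latter. Among genes named by rule, under quantile normalization the log2 differences were -0.026 for RPL10A, -0.19 for RPL19, -0.043 for RPL23A, -0.032 for RPL3 and -0.30 for RPS27, and -0.020 for the median of the regulators. After removal of the trends they were -0.13 for RPL10A, -0.077 for RPL23A, -0.28 for RPL34, -0.10 for RPL41 and -0.32 for RPS27, and with the trend fitted without the ribosomal protein genes -0.098, -0.059, -0.27, -0.048 and -0.23. Under median-ratio scaling RPS27 had -0.0083 and the median of the regulators was -0.012. RPL3L, near 0 FPKM, ranged from -0.049 to 0.10 without a library, below 0 without PTP2 2 and without SCR 1.

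The replicate numbers are shared by the groups, and the deviations of same-numbered libraries had a correlation of 0.064. With 2 libraries a group this value cannot tell whether same-numbered libraries share more than a number. With the replicate block 72 genes rose and 1 fell, 53 moved away from the mean of the ribosomal protein genes, and the call of LARP1 was lost. With 2 libraries a group, log2 differences up to 0.18 (RPL28) were not called, and depth in reads is an estimate.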
